A study of Mus musculus with 12 samples.

Results

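Mitosis and spindle genes were examined in RNA sequencing libraries of mouse cortex and ependymoma. The set was a list of 45 genes chosen by symbol, and its members were the rows with those symbols in both deposited tables, 45 of 24421 genes. All are protein coding and lie on 16 chromosomes in the GENCODE M21 annotation of mm10. There were 12 libraries in 4 groups of 3. The cortex group was non-tumour tissue of wild-type mice. Control tumours were ependymomas with the genotype ZFTA-RELA, a fusion of a zinc finger protein with the NF-kB subunit RELA that drives a class of ependymoma. The ETV5 and NPY tumours carried the same fusion together with overexpression of a human variant of ETV5 (a transcription factor of the ETS family) or of NPY (the precursor of neuropeptide Y). All 9 tumours thus shared the fusion, and no group had an added gene without it. The sources used here do not give ages, strain, vector or the cells in which the fusion was expressed. Nor do the labels say that replicates were separate animals, so that p-values speak only of the spread among these libraries.

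Mitosis is run by Cdk1 bound to cyclins A and B, with the Polo and Aurora kinases acting beside it. Condensins and topoisomerase II shape the chromosomes, kinesins and kinetochore proteins attach and move them, and the spindle checkpoint holds back the anaphase-promoting complex (APC/C), the ubiquitin ligase that destroys cyclin B and securin, until all are attached. Transcripts of these genes rise late in the cell cycle and are low in resting cells such as neurons, which make up much of the cortex, so bulk tissue without dividing cells is known to hold little of them. Many of their promoters carry a cell cycle genes homology region, to which MuvB complexes bind (the repressor DREAM in resting cells, and complexes with B-MYB and FOXM1 in dividing ones), and CCAAT boxes, to which NF-Y binds.

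Whole reads were recovered from the deposited values, with 5962376 to 11291057 reads per library. Levels are given as CPM (reads scaled to a common library total). The tissue labels were checked against marker genes. The summed level of 7 excitatory neuron genes, such as Slc17a7 and Camk2a, was 5758 to 7177 CPM in cortex, and among tumours 366 to 776 CPM in the controls, 45.5 to 449 with ETV5 and 40.6 to 43.8 with NPY. A list of 8 radial glia and ependymoma genes, such as Vim and Nes, summed to 1269.6 to 1350.4 CPM in cortex and to between 2033 and 3375 CPM in the 9 tumour libraries. Of these 8 genes, which include Rela, 6 rose and 2 fell from cortex to control tumours. Genes of ciliated ependymal cells such as Foxj1 were low, at a sum of 24.8 to 34.8 CPM in cortex and 1.22 to 18.7 CPM in tumours. Reads at mouse Rela were 18.5 to 19.1 CPM in cortex and 73.9 to 105 CPM in tumours. Reads at the mouse Etv5 locus were 264 to 322 CPM in control tumours and 401 to 474 CPM in ETV5 tumours, and reads at mouse Npy were 21.5 to 46.1 CPM in control and 2.19 to 15.9 CPM in NPY tumours. As the added genes are human, reads at the mouse loci are no measure of their level. Whether reads of the added genes or the fusion were counted at these loci was not tested, and the group names follow the labels.

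The promoters were searched for the motifs of this gene class, in a window from 250 bases before to 50 bases after each gene's start (RefSeq, GRCm38.p6, a version of the mm10 assembly), on both strands. A promoter was found for 37 of the 45 members. The homology region, searched as TTTGAA or TTCGAA, was present in 30 of 37 members (81.1%), against 21.7% of the 27025 genes with a promoter. CCAAT was present in 28 of 37 (75.7%), against 41.1% of genes. Both were present in 26 (70.3%), against 8.61% of genes. Among the 11047 expressed genes with a promoter, that is, those tested between control tumours and cortex, the shares were 16.1%, 42.2% and 6.6%. The homology region tended to lie near the start: 27 of 37 members (73.0%) held 1 within 50 bases of it, against 6.12% of genes, a limit chosen after the positions had been seen. CCAAT and its reverse complement ATTGG can share letters, and each is then counted. Of the members searched, Birc5, Ccnb1, Cenpe, Mad2l1, Nuf2, Nusap1 and Pttg1 held no homology region letters in this window, which says nothing of whether a factor binds there.

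The 6 promoters shown are those of the members with both motifs before the start whose levels differed most between control tumours and cortex. Each runs 5′ to 3′ on the gene's strand over the 250 bases before the start, with homology region and CCAAT letters on either strand (ATTGG is CCAAT on the other strand, TTCAAA is TTTGAA) in capitals.
Ncapg: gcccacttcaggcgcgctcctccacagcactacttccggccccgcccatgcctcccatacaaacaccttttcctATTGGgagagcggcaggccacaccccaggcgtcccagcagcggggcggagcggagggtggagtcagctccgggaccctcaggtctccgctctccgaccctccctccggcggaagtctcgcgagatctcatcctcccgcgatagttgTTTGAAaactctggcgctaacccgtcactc
Cdk1: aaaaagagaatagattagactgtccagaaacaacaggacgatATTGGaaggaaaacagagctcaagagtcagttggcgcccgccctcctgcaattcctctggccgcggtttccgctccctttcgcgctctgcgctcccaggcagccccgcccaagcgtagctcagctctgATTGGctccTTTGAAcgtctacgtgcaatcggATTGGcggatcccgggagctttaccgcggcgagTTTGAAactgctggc
Bub1b: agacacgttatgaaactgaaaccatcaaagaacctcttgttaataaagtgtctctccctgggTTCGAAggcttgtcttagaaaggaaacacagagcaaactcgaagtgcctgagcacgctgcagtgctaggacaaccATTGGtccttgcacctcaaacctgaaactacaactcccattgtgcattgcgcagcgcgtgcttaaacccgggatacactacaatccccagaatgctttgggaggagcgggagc
Ccnb2: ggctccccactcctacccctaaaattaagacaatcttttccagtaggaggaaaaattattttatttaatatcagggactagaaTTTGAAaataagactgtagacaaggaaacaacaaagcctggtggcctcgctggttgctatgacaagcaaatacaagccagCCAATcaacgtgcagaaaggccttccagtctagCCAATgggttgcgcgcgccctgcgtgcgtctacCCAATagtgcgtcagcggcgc
Ube2c: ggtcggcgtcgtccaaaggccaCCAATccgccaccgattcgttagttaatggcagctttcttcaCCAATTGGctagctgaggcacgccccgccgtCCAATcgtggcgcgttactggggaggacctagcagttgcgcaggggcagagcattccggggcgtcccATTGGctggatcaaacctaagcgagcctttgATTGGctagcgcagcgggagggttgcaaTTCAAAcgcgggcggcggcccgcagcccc
Top2a: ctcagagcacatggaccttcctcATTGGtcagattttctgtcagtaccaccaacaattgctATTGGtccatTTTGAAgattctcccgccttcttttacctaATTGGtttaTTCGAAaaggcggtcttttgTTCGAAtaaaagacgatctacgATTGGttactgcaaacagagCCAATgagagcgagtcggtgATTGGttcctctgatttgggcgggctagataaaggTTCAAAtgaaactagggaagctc
They are, in the same order, chr5:45669675-45669924 on the plus strand, chr10:69352913-69353162 on the minus strand, chr2:118597961-118598210 on the plus strand, chr9:70421555-70421804 on the minus strand, chr2:164769679-164769928 on the plus strand and chr11:99024190-99024439 on the minus strand. Counting back from the start, the homology region nearest to it begins at -15 in Cdk1, -30 in Ncapg, -29 in Ube2c and -23 in Top2a. Top2a holds 4 homology regions and 6 CCAAT boxes, and Ube2c 6 CCAAT boxes, of which a pair overlap (CCAATTGG). Ccnb2 has 3 CCAAT boxes at even spacing, beginning at -87, -54 and -21. Bub1b and Ccnb2 each hold a further homology region after the start, outside the bases shown, at 41 and 5.

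**Figure D1:**
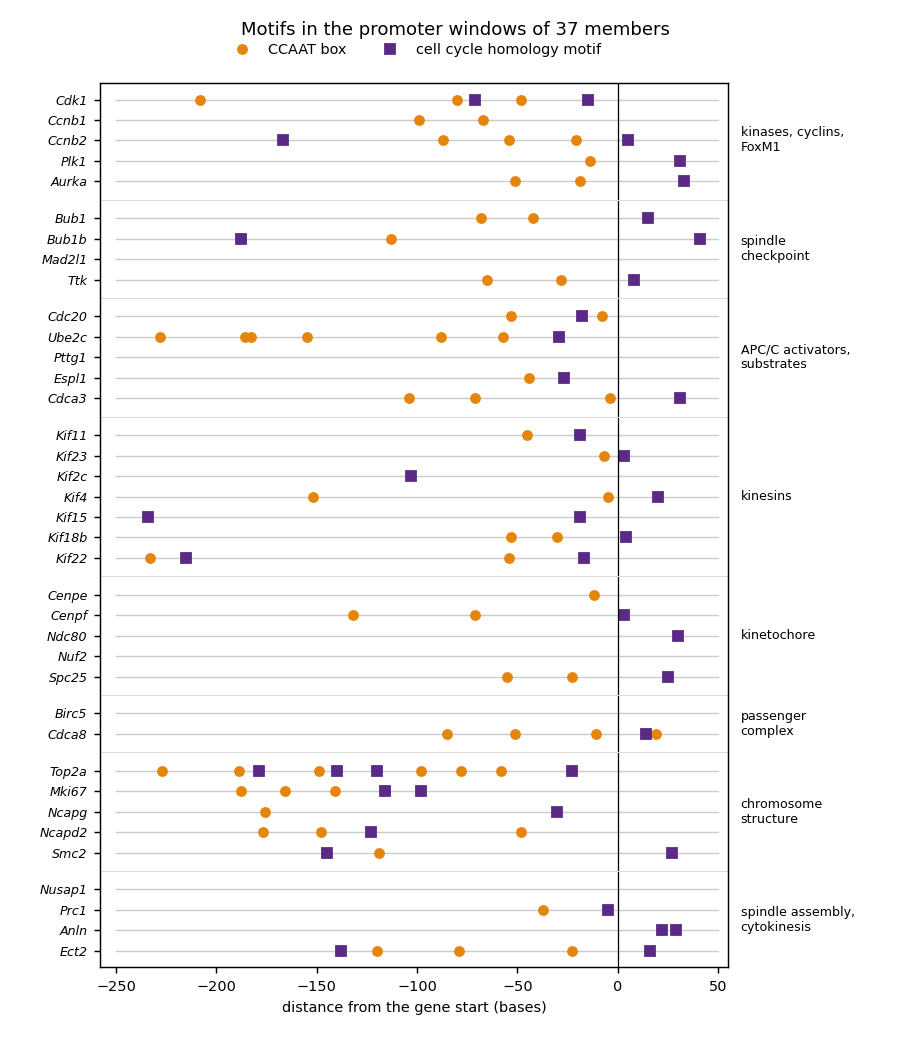
Position of each motif in the promoter windows of the 37 members with a RefSeq promoter. The horizontal axis is the distance in bases from the gene start (vertical line), orange circles are CCAAT boxes and purple squares are homology region motifs on either strand, placed at their first base, and rows are grouped by role. Homology regions gather within 50 bases of the start, in 27 members, and CCAAT boxes lie mostly before it.

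The members were scarce in cortex and abundant in every tumour. In cortex their mean levels ran from 0.372 (Ncapg) to 30.3 CPM (Anln) with a median of 1.88 CPM, and 23 of 45 were under 2 CPM. In control tumours the range was 8.93 (Cdc25c) to 184.6 CPM (Top2a) with a median of 38.5 CPM. The medians in ETV5 and NPY tumours were 46.4 and 56.6 CPM, with ranges of 11.5 to 251 and 13.5 to 343 CPM. For all 45 members every cortex library lay below every one of the 9 tumour libraries. Against the 3 control libraries alone, where this also held for all 45, it held for 38.3% of the genes tested. As the samples are bulk tissue, fewer cells of a type and less RNA per cell cannot be told apart.

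Levels between genes were compared per kilobase of annotated exon and per library total (RPKM). In control tumours Ccnb2 stood highest at 31.7 ± 4.83 RPKM (SD, n = 3), followed by Cdc20 at 27.6 ± 3.98, Cdk1 at 22.1 ± 3.99, Top2a at 20.5 ± 4.84 and Smc4 at 20.04 ± 3.17. Cdk1, Top2a and Smc4 differed from their neighbours among these 3 by less than either SD. Kif15, at 1.62 ± 0.387 RPKM, and Cdc25c, at 1.82 ± 0.561, were lowest. In cortex the order was another: Anln led at 3.34 ± 0.903 RPKM, followed by Ncapd2 at 2.32 ± 0.273 and Smc2 at 2.05 ± 0.352, while Ncapg was lowest at 0.0527 ± 0.0604. Within a group, the SD of a member was 27.0% of its mean in cortex, 19.2% in control, 12.6% in ETV5 and 16.6% in NPY tumours (medians over members). The cortex values rest on few reads, from 7 over the 3 libraries for Ncapg to 636 for Anln, against 231 to 4725 in control tumours.

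**Figure D2:**
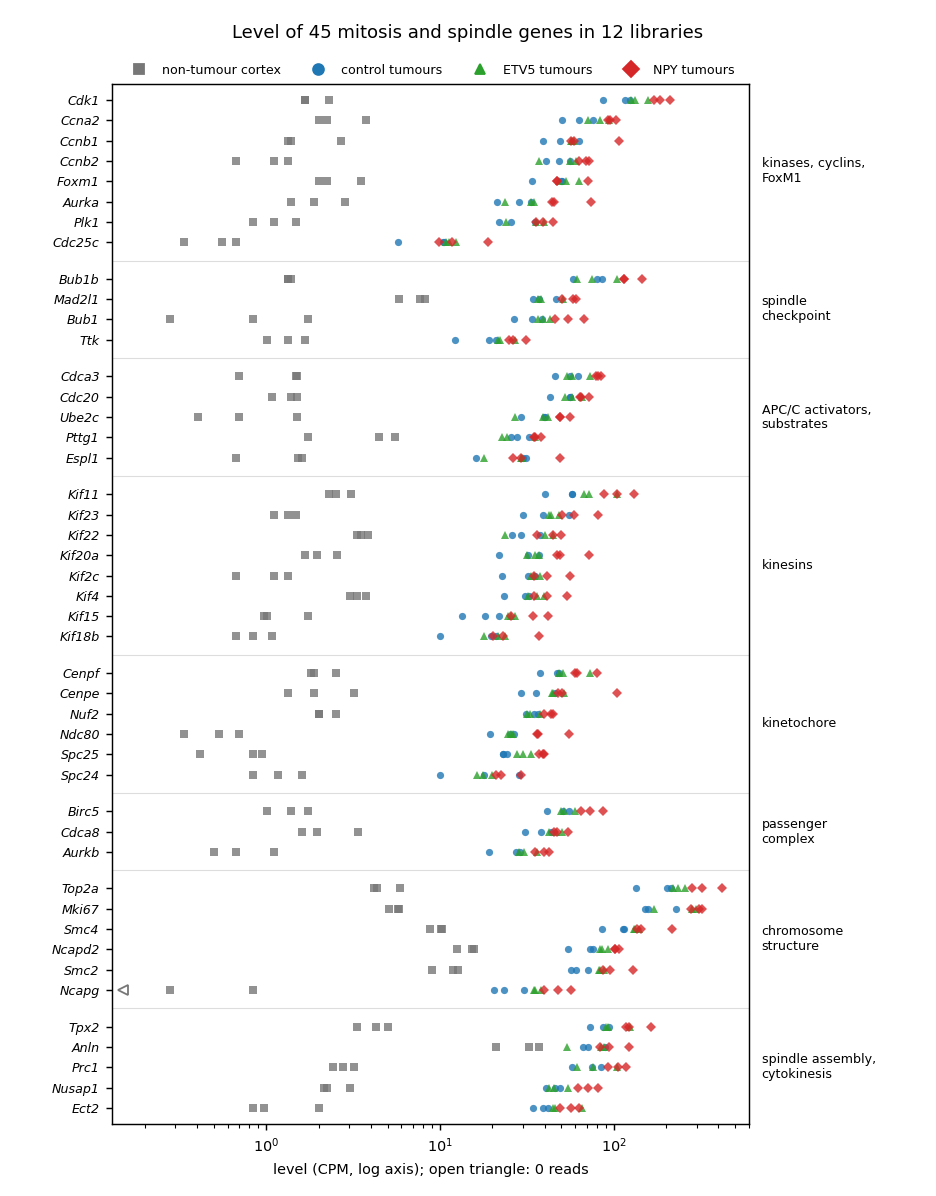
Level of each of the 45 members in each of the 12 libraries. The horizontal axis is CPM on a log scale, each symbol is 1 library coloured by group, rows are grouped by role, and the open triangle marks 1 cortex library with 0 reads of Ncapg. Cortex libraries lie to the left of all tumour libraries in every row, with the smallest gap for Anln, and NPY tumours tend to the right of control tumours.

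The comparison of control tumours with cortex sets tumour against normal tissue. All 45 members rose, where 35.7% of the 14621 genes tested were called higher and 36.2% lower (limma, adjusted p under 0.05). The median log2 fold change was 4.12, a 17.4-fold difference, against -0.003 over all genes tested. Single members ran from 1.17 for Anln, a scaffold of the cytokinetic ring, to 5.92 for Ncapg, a condensin I subunit. These fold changes are on the scale of log2(deposited value + 1), in which each library is divided by the authors' size factor and not by its total, so that they differ from ratios of CPM. Markers of other cells differed in the same comparison: all 7 excitatory neuron, 6 pan-neuronal, 5 interneuron and 7 oligodendrocyte markers fell, and the 8 microglia and macrophage markers all rose, from a sum of 392 to 447 CPM in cortex to 2578 to 5576 CPM in control tumours. Of the vascular markers, 4 of 5 endothelial and 4 of 4 pericyte genes rose, with medians of 1.84 and 0.84. Of 6 astrocyte genes 4 fell and 1 rose (median -0.77), and of 5 oligodendrocyte precursor genes 2 rose and 2 fell. Which cells carried the members' reads was not tested.

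**Figure D3:**
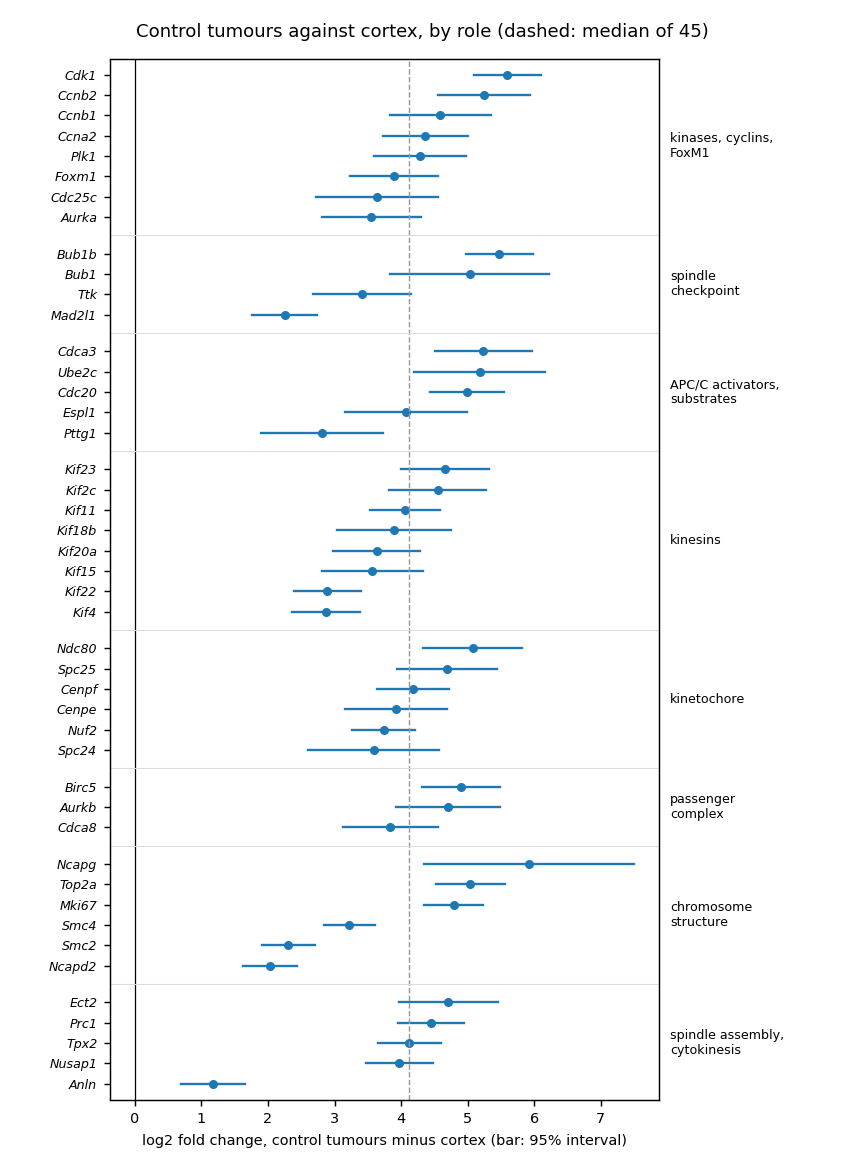
Log2 fold change of each member in control tumours against cortex (3 libraries each). Points are limma estimates, bars their 95% intervals, the solid line marks no difference and the dashed line the median of the 45 members, 4.12. Every interval lies above 0, and Anln, Ncapd2, Mad2l1 and Smc2 lie farthest left.

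Among the mitotic kinases, cyclins and FoxM1, all 8 rose, with a median log2 fold change of 4.33. Cdk1, the kinase that drives entry into mitosis (chromosome 10, 69335146 to 69352938, minus strand), stood at 2.28, 1.68 and 1.67 CPM for cortex, 124, 116 and 86.6 for controls, 158, 126 and 133 with ETV5 and 184, 211 and 170.2 with NPY. Control tumours lay far above cortex, and on the CPM scale ETV5 tumours lay above all controls by a small margin and NPY tumours above both. Its log2 fold change from cortex to control tumours, 5.60 (SE 0.22, adjusted p = 6.25e-07), was the largest of this group. Ccnb2, a B-type cyclin, stood at 0.672, 1.34 and 1.11 CPM for cortex, 48.7, 55.8 and 41 for controls, 61, 37.4 and 56.4 with ETV5 and 62.8, 71.9 and 69.5 with NPY. The 3 NPY libraries were above all others, and ETV5 replicate 2 was the lowest tumour. Aurka, the Aurora kinase of the spindle poles, had the smallest difference of the group, 3.55 (SE 0.32, adjusted p = 1.89e-05). Its levels were 1.88, 2.85 and 1.39 CPM for cortex, 33.6, 28.4 and 21.4 for controls, 34.6, 23.8 and 33.3 with ETV5 and 45.3, 74.1 and 44.1 with NPY. NPY replicate 2 stood above the rest of its group.

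Foxm1, the transcription factor that induces many of these genes, stood at 2.01, 3.52 and 2.23 CPM for cortex, 50.2, 49.5 and 33.8 for controls, 48.2, 63.1 and 53.4 with ETV5 and 47.5, 71 and 46.9 with NPY. The 3 tumour groups overlapped. Plk1, the Polo kinase, stood at 1.48, 0.839 and 1.11 CPM for cortex, 21.9, 35.2 and 25.5 for controls, 39.8, 35.7 and 23.9 with ETV5 and 39.5, 35.5 and 44.6 with NPY. NPY tumours lay above control tumours, and ETV5 tumours overlapped with both. Of the others, the cyclin Ccna2 had means of 2.67 ± 0.954 CPM for cortex, 63.2 ± 12.8 for controls, 83.1 ± 11.4 with ETV5 and 96.9 ± 5.79 with NPY. For Ccnb1, the other B-type cyclin, the means were 1.81 ± 0.760 CPM for cortex, 50.7 ± 12 for controls, 57.8 ± 0.964 with ETV5 and 74.5 ± 28.3 with NPY. The large SD in NPY tumours came with a value of 107 CPM in replicate 2. Cdc25c, a phosphatase that activates Cdk1, was the least abundant of the group, at 0.521 ± 0.171 CPM for cortex, 8.93 ± 2.76 for controls, 11.5 ± 0.791 with ETV5 and 13.5 ± 4.76 with NPY.

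All 4 spindle checkpoint genes rose in control tumours, with a median of 4.22. Bub1b, which encodes the checkpoint protein BubR1, stood at 1.34, 1.34 and 1.39 CPM for cortex, 80.1, 86.1 and 58.7 for controls, 105, 61.1 and 75 with ETV5 and 115, 146 and 115 with NPY. NPY tumours lay above all control and ETV5 libraries, and ETV5 replicate 1 was the highest outside the NPY group. Its log2 fold change from cortex was 5.47 (SE 0.22, adjusted p = 7.23e-07). Mad2l1, which encodes the Mad2 inhibitor of the APC/C, was already present in cortex. It stood at 7.66, 8.22 and 5.85 CPM for cortex, 37.4, 46.3 and 34.1 for controls, 51.3, 36.6 and 38 with ETV5 and 61, 50.8 and 58 with NPY. The log2 fold change of 2.25 (SE 0.21, adjusted p = 2.33e-05) was the smallest of the checkpoint genes. The kinase gene Bub1 had means of 0.954 ± 0.741 CPM for cortex, 33.1 ± 6.08 for controls, 39.4 ± 3.25 with ETV5 and 56.1 ± 10.9 with NPY. For Ttk, which encodes the kinase Mps1, they were 1.34 ± 0.332 CPM for cortex, 17.5 ± 4.58 for controls, 23.6 ± 2.99 with ETV5 and 27.5 ± 3.23 with NPY.

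The 5 APC/C activators and substrates had the largest median of the 8 roles, 4.99, and all rose. Cdca3, a mitotic entry factor and APC/C substrate, stood at 1.48, 1.51 and 0.696 CPM for cortex, 62.2, 56.2 and 46.1 for controls, 57.3, 54 and 73.2 with ETV5 and 81.2, 84.5 and 79.3 with NPY. NPY libraries were above all others, and ETV5 replicate 3 was the highest of the rest. The log2 fold change from cortex was 5.23 (SE 0.32, adjusted p = 2.58e-06). Pttg1, which encodes securin, the inhibitor of separase, was lowest of this group at 2.81 (SE 0.40, adjusted p = 0.000272). It stood at 1.75, 5.53 and 4.45 CPM for cortex, 32.6, 28 and 25.7 for controls, 35.2, 22.9 and 24.2 with ETV5 and 35.1, 38.3 and 34.9 with NPY. The cortex libraries differed among themselves, on 13 to 33 reads, and ETV5 replicates 2 and 3 lay below all control libraries. Cdc20, the APC/C activator, had means of 1.33 ± 0.225 CPM for cortex, 51.5 ± 7.44 for controls, 58.7 ± 6.61 with ETV5 and 67.2 ± 4.18 with NPY. For its ubiquitin-conjugating enzyme Ube2c they were 0.869 ± 0.573 CPM for cortex, 36.4 ± 6.08 for controls, 36.1 ± 8.01 with ETV5 and 51.3 ± 3.97 with NPY. In Espl1, which encodes separase, they were 1.27 ± 0.522 CPM for cortex, 25.8 ± 8.37 for controls, 25.6 ± 6.62 with ETV5 and 35 ± 12.6 with NPY.

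All 8 kinesin genes rose, with a median of 3.76. Kif23, a subunit of centralspindlin, stood at 1.48, 1.34 and 1.11 CPM for cortex, 39.4, 55.1 and 30.2 for controls, 42.6, 43.3 and 48.6 with ETV5 and 59.4, 81.2 and 50.2 with NPY. It had the largest log2 fold change from cortex of the kinesins, 4.66 (SE 0.29, adjusted p = 2.76e-06). Control replicate 2 lay above NPY replicate 3. Kif4, a chromosome-bound kinesin, had the smallest, 2.87 (SE 0.22, adjusted p = 7.75e-06). It stood at 3.76, 3.02 and 3.34 CPM for cortex, 30.8, 32.6 and 23.3 for controls, 39.5, 36.2 and 32 with ETV5 and 41.3, 53.7 and 35 with NPY. Kif11, the motor that separates the spindle poles (chromosome 19, 37376403 to 37421859, plus strand), stood at 2.28, 2.52 and 3.06 CPM for cortex, 57.3, 57.8 and 40.2 for controls, 67.2, 105 and 72 with ETV5 and 104, 132 and 87.6 with NPY. Its control libraries were below all ETV5 and NPY libraries, and ETV5 replicate 2 reached the NPY range.

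Of the other kinesins, Kif20a, of the central spindle, had means of 2.06 ± 0.448 CPM for cortex, 30.6 ± 7.84 for controls, 34.7 ± 2.73 with ETV5 and 56 ± 13.8 with NPY. Kif2c, a microtubule depolymerase, had 1.04 ± 0.342 CPM for cortex, 30.02 ± 6.53 for controls, 35.4 ± 2.19 with ETV5 and 44 ± 10.7 with NPY. Kif15, which works beside Kif11, stood at 1.24 ± 0.437 CPM for cortex, 17.8 ± 4.26 for controls, 25.8 ± 1.05 with ETV5 and 33.9 ± 8.05 with NPY. Kif18b, another depolymerase, stood at 0.860 ± 0.203 CPM for cortex, 16.9 ± 5.95 for controls, 21 ± 2.91 with ETV5 and 26.8 ± 8.96 with NPY. For Kif22, which pushes chromosome arms from the poles, the means were 3.56 ± 0.266 CPM for cortex, 31 ± 6.18 for controls, 36.2 ± 11.1 with ETV5 and 43.6 ± 6.95 with NPY. In all 5 the mean was highest in NPY tumours.

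The 6 kinetochore genes rose with a median of 4.05. Ndc80, the microtubule-binding subunit of the complex of that name, stood at 0.537, 0.335 and 0.696 CPM for cortex, 25.2, 26.9 and 19.3 for controls, 26.4, 24.8 and 25.7 with ETV5 and 36.7, 55.3 and 36.2 with NPY. Cortex held 4, 2 and 5 reads of it, and the NPY libraries were above all others. The log2 fold change from cortex was 5.07 (SE 0.32, adjusted p = 3.13e-06). Spc25, another subunit of that complex (chromosome 2, 69193895 to 69206194, minus strand), stood at 0.940, 0.839 and 0.418 CPM for cortex, 24.4, 23.1 and 23.1 for controls, 30.1, 27.9 and 33.3 with ETV5 and 39.6, 39.1 and 37.4 with NPY. Each tumour group was tight, and the 3 groups did not overlap. Spc24, the partner of Spc25, had the smallest difference from cortex of this group, 3.59 (SE 0.43, adjusted p = 9.42e-05). It stood at 1.61, 1.17 and 0.835 CPM for cortex, 28.7, 17.9 and 10.1 for controls, 17.6, 16.4 and 20.02 with ETV5 and 21.1, 29.3 and 22.5 with NPY. Its control libraries ran from 10.1 to 28.7 CPM, nearly the whole range of the tumours.

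Nuf2, the partner of Ndc80, had means of 2.18 ± 0.284 CPM for cortex, 34.3 ± 2.59 for controls, 34.2 ± 3.19 with ETV5 and 42.8 ± 2.72 with NPY. Cenpe, a kinetochore kinesin, had 2.14 ± 0.957 CPM for cortex, 37 ± 8.41 for controls, 46.8 ± 4.10 with ETV5 and 67.7 ± 32.2 with NPY. As for Ccnb1, the spread in NPY tumours came with replicate 2, at 105 CPM against 50.4 and 47.9. Cenpf, a large kinetochore protein, had 2.07 ± 0.389 CPM for cortex, 44.4 ± 5.84 for controls, 57.5 ± 13.4 with ETV5 and 67.6 ± 11.2 with NPY. The chromosomal passenger complex, which corrects wrong attachments, was represented by 3 genes, all of which rose (median 4.70). Birc5, which encodes survivin, stood at 1.75, 1.01 and 1.39 CPM for cortex, 55.7, 51.3 and 41.5 for controls, 52.1, 49.9 and 60.05 with ETV5 and 64.8, 86.3 and 73.1 with NPY. NPY libraries were above all others, and the log2 fold change from cortex was 4.89 (SE 0.25, adjusted p = 1.35e-06). Aurkb, the kinase of the complex, had means of 0.763 ± 0.315 CPM for cortex, 25.1 ± 5.19 for controls, 31.6 ± 3.98 with ETV5 and 39.1 ± 3.58 with NPY. Cdca8, which encodes borealin, had the smallest difference from cortex of the 3, 3.84 (SE 0.31, adjusted p = 9.96e-06). It stood at 1.61, 3.35 and 1.95 CPM for cortex, 43.5, 38.4 and 31 for controls, 42.3, 46.5 and 50.4 with ETV5 and 47.5, 54.7 and 45.6 with NPY. ETV5 and NPY libraries overlapped.

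The 6 chromosome structure genes rose with a median of 4.01 and the widest range of the 8 roles. Ncapg (chromosome 5, 45669919 to 45700546, plus strand) stood at 0, 0.839 and 0.278 CPM for cortex, 23.3, 30.6 and 20.4 for controls, 34.8, 35.4 and 38 with ETV5 and 48, 56.7 and 39.8 with NPY. One cortex library held 0 of its reads, which allows up to 0.403 CPM (3 reads, for counting error only), and the others 5 and 2. The log2 fold change of 5.92 (SE 0.69, adjusted p = 7.88e-05) was the largest of all members and, with so few reads in cortex, the one with the largest SE. Top2a, the topoisomerase that untangles sister chromatids, stood at 5.91, 4.36 and 4.18 CPM for cortex, 204, 215 and 135 for controls, 235, 256 and 221 with ETV5 and 324, 420.1 and 284 with NPY. The control libraries were below all ETV5 libraries, and those below all NPY libraries. Mki67, the proliferation antigen Ki-67 that coats mitotic chromosomes, stood at 5.10, 5.70 and 5.85 CPM for cortex, 151, 229 and 158 for controls, 283, 298 and 172 with ETV5 and 308, 322 and 277 with NPY. ETV5 replicate 3 lay within the control range while the other ETV5 libraries lay in the NPY range.

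Other condensin genes had more reads in cortex. Ncapd2, a condensin I subunit, had the smallest difference of the group, 2.03 (SE 0.18, adjusted p = 1.63e-05). It stood at 15.3, 12.6 and 15.7 CPM for cortex, 72.9, 76.3 and 54.3 for controls, 92.6, 85.5 and 83.3 with ETV5 and 102, 108 and 102 with NPY. The 3 tumour groups did not overlap. The core condensin genes Smc2 and Smc4 were also measurable in cortex: Smc2 had means of 11.2 ± 1.93 CPM for cortex, 62.7 ± 7.49 for controls, 84.4 ± 3.53 with ETV5 and 103 ± 22.6 with NPY. For Smc4 they were 9.74 ± 0.889 CPM for cortex, 104 ± 16.5 for controls, 135 ± 4.95 with ETV5 and 166 ± 44.2 with NPY. In both, every tumour library lay above every cortex library.

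The 5 spindle assembly and cytokinesis genes rose with a median of 4.12. Anln (chromosome 9, 22332012 to 22389188, minus strand), the anillin of the contractile ring, stood at 36.9, 21.1 and 32.7 CPM for cortex, 89.2, 70.8 and 66.7 for controls, 84.8, 54 and 87.8 with ETV5 and 93.7, 123 and 83.7 with NPY. Its cortex level was the highest of all members, and its log2 fold change of 1.17 (SE 0.21, adjusted p = 0.00103) the smallest. Ect2, the exchange factor that activates RhoA at the cleavage site, had the largest of this group, 4.71 (SE 0.32, adjusted p = 4.36e-06). It stood at 2.01, 0.839 and 0.974 CPM for cortex, 39.3, 41.8 and 34.5 for controls, 65.6, 45.9 and 45 with ETV5 and 63.3, 57.1 and 49.3 with NPY. ETV5 replicate 1 was its highest library. Tpx2, which activates Aurora A, had means of 4.22 ± 0.848 CPM for cortex, 84.5 ± 10.1 for controls, 103 ± 19 with ETV5 and 135 ± 24.7 with NPY. Prc1, which bundles antiparallel microtubules, had 2.80 ± 0.385 CPM for cortex, 72.4 ± 14.1 for controls, 80.8 ± 21.6 with ETV5 and 105 ± 12 with NPY. Nusap1, a microtubule crosslinker near chromatin, had 2.47 ± 0.481 CPM for cortex, 45.2 ± 4.14 for controls, 47.2 ± 6.27 with ETV5 and 71.8 ± 9.26 with NPY.

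The 5 members Anln, Ncapd2, Smc2, Smc4 and Mad2l1, made up 48.5% ± 5.02 of the summed level of the 45 in cortex, and 15.8% ± 0.719, 15.7% ± 0.770 and 15% ± 0.362 of it in control, ETV5 and NPY tumours (SD, n = 3). They were chosen after their values had been seen. Anln alone made up 20.02% ± 4.28 of the cortex sum and 3.43% ± 0.549 of the control sum. Members with a homology region in their promoter had a median log2 fold change from cortex of 4.50 (30 members, range 1.17 to 5.92) and those without it 3.92 (7 members, range 2.25 to 4.89), ranges that overlap widely. Of 15 members whose exons overlap those of another annotated gene, 7 do so over more than 10% of their exon length, all with a gene on the opposite strand: Kif20a with Cdc23 (29.3%), Ube2c with Tnnc2 (22.8%), Kif4 with Pdzd11 (15.1%), Ncapg with Lcorl (13.4%), Cdc25c with Gm3550 (12.7%), Ccna2 with Exosc9 (12.5%) and Prc1 with Rccd1 (11.1%). No source used here says whether reads were counted by strand, so reads of these pairs may not be told apart. Kif22, Ccnb1, Ccnb2 and Kif4 have a pseudogene named for them, with which reads could be shared.

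Other genes of the pathway were examined from lists that did not overlap with the members. Of 79 other mitosis genes, 70 rose and 4 fell in control tumours, with a median log2 fold change of 3.03. Of all genes tested, 35.7% were called higher and 36.2% lower. The largest rises were those of Cdca2, which targets protein phosphatase 1 to chromatin (5.60, SE 0.70, adjusted p = 0.00012), Depdc1a (5.25, SE 0.37, adjusted p = 5.18e-06) and the kinase gene Pbk (5.06, SE 0.27, adjusted p = 1.5e-06). The largest falls were those of Zwint (-2.36, SE 0.17, adjusted p = 5.45e-06), from 910.4 ± 47.1 to 204 ± 58.0 CPM, and of the citron kinase gene Cit (-2.36, SE 0.19, adjusted p = 1.02e-05), from 55.4 ± 6.91 to 12.2 ± 2.58 CPM. Both are known to be expressed in neurons as well. Wee1, the kinase that inhibits Cdk1, fell by 0.48 on the log2 scale (SE 0.17, adjusted p = 0.0332).

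Subunits and partners of the APC/C differed less. Of 16, 7 rose and 1 fell (median 0.24), where 35.7% of all genes tested were called higher and 36.2% lower. Cdc26 had the largest rise (1.2, SE 0.14, adjusted p = 9.37e-05). Fzr1, which encodes the activator Cdh1 of late mitosis and G1, fell by 0.52 on the log2 scale (SE 0.13, adjusted p = 0.00689). Of 10 cohesin genes 6 rose, led by Stag1 (0.90, SE 0.13, adjusted p = 0.000329), and 2 fell, Pds5b (-1.14, SE 0.13, adjusted p = 7.02e-05) and the loader gene Mau2 (-0.69, SE 0.12, adjusted p = 0.00108), with a median of 0.42. Among 23 tested transcription regulators of the cell cycle, 15 rose and 2 fell (median 0.77). Mybl2, which encodes the B-MYB of the complexes that bind the homology region, rose by 3.59 (SE 0.58, adjusted p = 0.000563), the pocket protein gene Rbl1 by 3.34 (SE 0.23, adjusted p = 4.12e-06) and E2f8 by 3.28 (SE 0.31, adjusted p = 2.59e-05). The genes that fell were Nfyb, a subunit of NF-Y (-1.22, SE 0.12, adjusted p = 3.27e-05), and Lin52, a subunit of MuvB (-0.94, SE 0.21, adjusted p = 0.00359).

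Genes of DNA replication, which act before mitosis, rose in 30 of 32 cases with a median of 2.53, led by Tyms (4.78, SE 0.24, adjusted p = 1.24e-06), Mcm3 (4.38, SE 0.23, adjusted p = 1.44e-06) and Mcm6 (4.32, SE 0.28, adjusted p = 3.49e-06). Cell cycle inhibitors rose in 5 of 11 cases and fell in 0 (median 0.53), against 35.7% and 36.2% of all genes tested. On the lower side 1 of them had an unadjusted p under 0.05. Cdkn2a, which encodes p16 and p19ARF, rose by 7.94 (SE 0.44, adjusted p = 1.61e-06), from 0.333 ± 0.315 to 109 ± 17.0 CPM. Cdkn1c rose by 4.92 (SE 0.72, adjusted p = 0.000319) and Cdkn2b by 3.71 (SE 0.31, adjusted p = 1.17e-05).

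The effect of added ETV5 was examined against the control tumours. No member was called, and no gene of 14382 was (0% called by limma, and 0 by edgeR; 944 genes, 6.56%, had an unadjusted p under 0.05, and DESeq2 called 17 higher, 0.118%, and 58 lower, 0.403%, of which 0 were members). The members' estimates lay mostly a little above 0. They were positive for 41 of 45, where 48.1% of all genes were, with a median log2 fold change of 0.26 (1.19-fold, against -0.02 over all genes) and a range of -0.10 for Pttg1 to 0.63 for Kif11. The lowest adjusted p of a member was 0.732. An unadjusted p under 0.05 on the higher side was reached by 3 members, Kif11, Ncapg and Smc2, against 1.89% of genes.

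In 9 members every ETV5 library lay above every control library on the scale tested, where 6.26% of genes did so. On the CPM scale it was 13 members, against 7.1% of genes. Among the chromosome structure genes this held on both scales for 5 of 6 (Top2a, Ncapg, Ncapd2, Smc2 and Smc4), among the kinesins for Kif11 and Kif15, and in addition for Spc25 and Ect2. Kif11 had an estimate of 0.63 (SE 0.25, 95% interval 0.04 to 1.23, adjusted p = 0.732) and Ncapg of 0.55 (SE 0.22, 0.03 to 1.07, adjusted p = 0.732). For Cdk1 it was 0.35 (SE 0.20, -0.12 to 0.82, adjusted p = 0.733), for Mki67 0.46 (SE 0.27, -0.19 to 1.11, adjusted p = 0.739) and for Top2a 0.38 (SE 0.23, -0.16 to 0.92, adjusted p = 0.739). The lowest estimates were those of Pttg1, -0.10 (SE 0.22, -0.63 to 0.43, adjusted p = 0.938), and Anln, -0.03 (SE 0.24, -0.62 to 0.55, adjusted p = 0.984). With intervals this wide, equality of the groups was not shown.

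The members' values in this comparison moved with single libraries. Control replicate 3 was the lowest of the 9 tumour libraries for 36 of 45 members. Without it the median was 0.09, with 30 of 45 estimates positive, and without control replicate 2 it was 0.40. ETV5 replicate 3 has a library code of another prefix (EC) than the other ETV5 libraries and the controls (DS). Within DS, that is, without it, the median was 0.26 with 36 of 45 positive. Control replicate 3 also had the highest summed level of excitatory neuron genes of the 9 tumours, 12% of the cortex mean, against 5.65% and 7.34% in the other controls and 0.704%, 6.94% and 2.63% in ETV5 tumours. The estimates of all 7 excitatory neuron genes and all 8 microglia genes were negative in ETV5 tumours, with 0 called in either list. The same held for all 6 pan-neuronal, 5 interneuron, 7 oligodendrocyte, 6 astrocyte and 5 endothelial genes. Among 4 pericyte genes 3 were negative and 1 positive, and among 5 oligodendrocyte precursor genes 2 were negative and 3 positive. The part of these cells in the members' differences was not tested. None of the 79 other mitosis genes was called (median 0.26, 4 with an unadjusted p under 0.05 on the higher side and 0 on the lower), and the medians were 0.27 for DNA replication, 0.11 for APC/C subunits, 0.23 for cohesin, 0.18 for transcription regulators and 0.02 for inhibitors, with 0 called in each list.

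Added NPY was examined against the same 3 control libraries, so this comparison and that of ETV5 share their controls. Of the members 3 rose, Kif11, Cdk1 and Spc25, in a table where 0.728% of 14425 genes were called higher and 4.31% lower. The estimates were positive for all 45 members, where 53.2% of genes were positive. Their median log2 fold change was 0.71 (1.64-fold, against 0.04 over all genes), and single members ran from 0.39 for Foxm1 to 1.14 for Kif11. An unadjusted p under 0.05 was reached by 39 of 45, all on the higher side, against 10.4% of genes.

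Spc25 rose by 0.80 (SE 0.14, 95% interval 0.47 to 1.12, adjusted p = 0.0286), from 23.1 to 24.4 CPM in control libraries to 37.4 to 39.6 CPM in NPY libraries. Kif11 rose by 1.14 (SE 0.23, 0.60 to 1.69, adjusted p = 0.0418) and Cdk1 by 0.88 (SE 0.19, 0.44 to 1.33, adjusted p = 0.0491). All 3 were higher in 3 of 3 NPY libraries than in any control library. The next highest estimate was that of Ncapg, 1.05 (SE 0.23, 0.50 to 1.59), which missed the threshold (adjusted p = 0.0514). Top2a had 0.99 (SE 0.25, 0.40 to 1.58, adjusted p = 0.0731) and Mki67 0.86 (SE 0.20, 0.38 to 1.34, adjusted p = 0.0607). The lowest were Foxm1 with 0.39 (SE 0.25, -0.21 to 0.98, adjusted p = 0.4) and Nuf2 with 0.41 (SE 0.15, 0.06 to 0.75, adjusted p = 0.158).

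Every NPY library lay above every control library in 37 members on the scale tested, against 15.8% of genes, and in 35 on the CPM scale, against 11.1%. This held for all 4 checkpoint genes, all 3 passenger complex genes and all 6 chromosome structure genes on both scales. By role, median estimates ran from 0.53 for APC/C activators and substrates to 0.82 for chromosome structure. NPY replicate 2 was the highest of the 9 tumour libraries for 38 members. Without it the median was 0.61, and without control replicate 3 it was 0.54. None of the calls held up throughout: leaving out any 1 of the 6 libraries left 0 members called, except that Spc25 stayed called without NPY replicate 2. DESeq2 called 23 members (4.2% of genes higher) and edgeR 2, Kif11 and Spc25 (0.541%). Over 16 settings, the main one included, Cdk1 was called in 4, and Kif11 and Spc25 in 10 each.

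**Figure D4:**
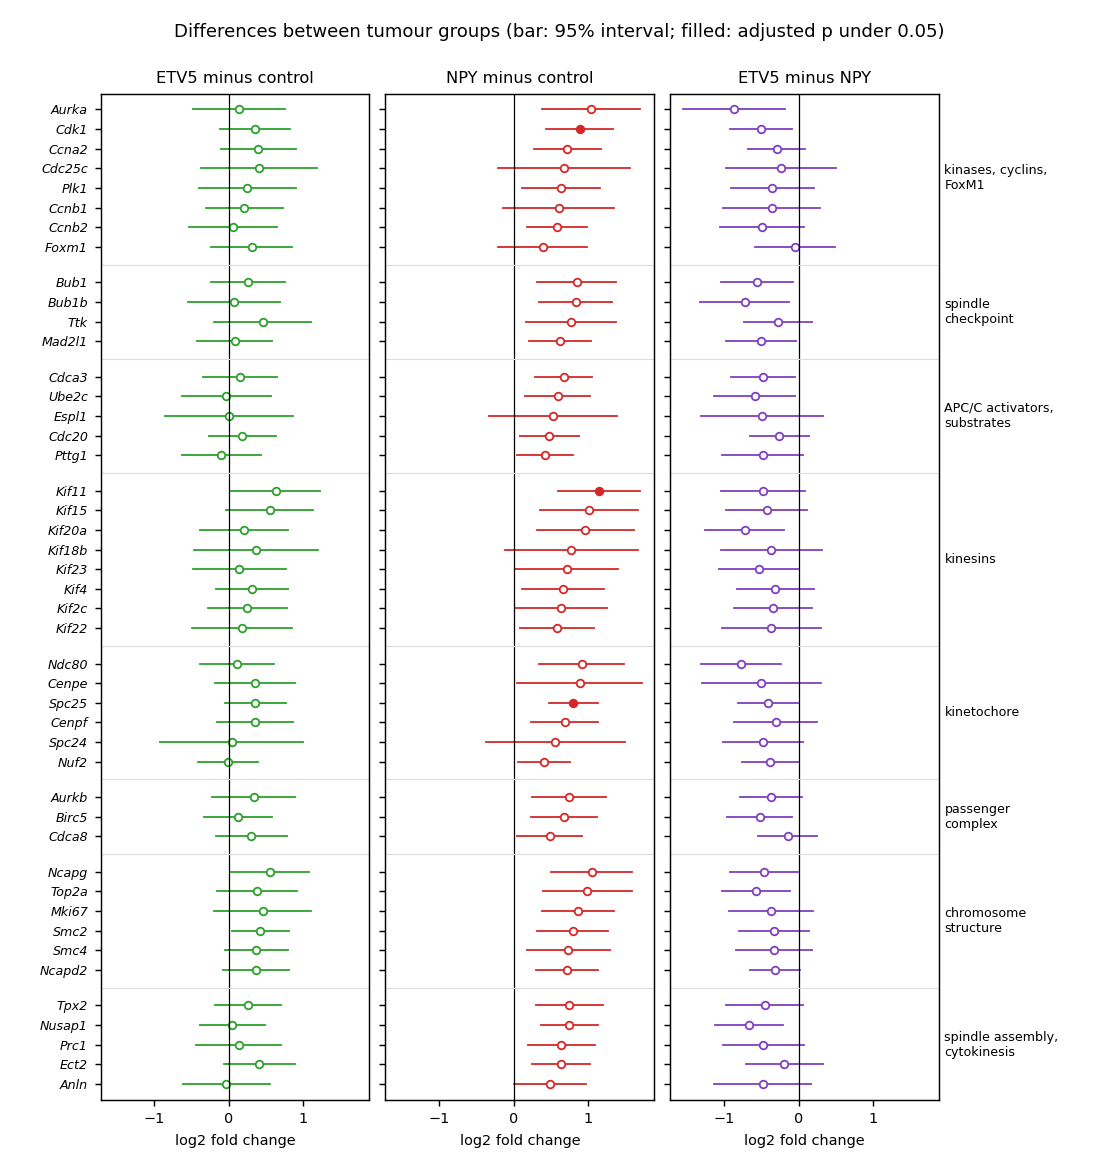
Log2 fold change of each member between tumour groups (3 libraries each): ETV5 against control, NPY against control, and ETV5 against NPY. Points are limma estimates and bars their 95% intervals. Filled points passed an adjusted p of 0.05, namely Cdk1, Kif11 and Spc25 in the middle panel, where all estimates are positive, while in the right panel all are negative.

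Of 79 other mitosis genes 8 rose in NPY tumours and 0 fell (none had an unadjusted p under 0.05 on the lower side), with a median of 0.66. Of all genes tested, 0.728% were called higher. Casc5, the kinetochore scaffold Knl1, rose by 1.35 (SE 0.23, adjusted p = 0.028), Cenpk by 1.33 (SE 0.24, adjusted p = 0.0313) and Cdkn3 by 1.23 (SE 0.23, adjusted p = 0.0341). Of 32 DNA replication genes 3 rose (median 0.74), among them Gins2 by 1.09 (SE 0.17, adjusted p = 0.023) and Pcna by 0.73 (SE 0.15, adjusted p = 0.0422). In the lists of 16 APC/C subunits, 10 cohesin genes, 24 transcription regulators and 11 inhibitors 0 were called, with medians of 0.22, 0.25, 0.40 and 0.14. At an unadjusted p under 0.05 the first 3 of these lists had 3, 4 and 10 genes on the higher side, and the inhibitors 0. Among all genes tested, 10.4% reached that p on the higher side.

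Neuronal markers fell in the same comparison: 6 of 7 excitatory neuron genes, 3 of 6 pan-neuronal genes and 3 of 4 tested interneuron genes were called lower. Of all genes tested, 4.31% were called lower. Neurod6 had 0 reads in all 3 NPY libraries. The summed level of the 7 excitatory neuron genes was 5.65% to 12% of the cortex mean in control tumours and 0.627% to 0.677% in NPY tumours. Of 7 oligodendrocyte and 6 astrocyte genes 1 each was called lower, but all estimates in both lists were negative (medians -2.01 and -2.03). An unadjusted p under 0.05 on the lower side was reached by 6 and 4 of them, against 1886 of 14425 genes. Of 8 microglia genes 0 were called (median -0.25). Each library's sum of members was also divided by 1 minus its excitatory neuron level relative to cortex. The NPY mean was then 1.47 times the control mean in place of 1.59 times. That scaling takes in 1 marker list only. The oligodendrocyte genes summed to 3086 ± 1049 CPM in control and 977 ± 601 CPM in NPY tumours (SD, n = 3). For the astrocyte genes the sums were 3524 ± 343 and 916 ± 636 CPM, and for the microglia genes 4002 ± 1504 and 3036 ± 1040 CPM. The part of these cells in the members' differences was not tested. All NPY libraries have the code prefix EC and all controls DS, so prefix and group cannot be told apart.

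ETV5 and NPY tumours were then compared with each other, on recovered reads scaled over the 9 tumour libraries. No member and no gene of 14023 was called by limma or edgeR (0%; 831 genes, 5.93%, had an unadjusted p under 0.05, and DESeq2 called 37 higher, 0.264%, and 19 lower, 0.135%, of which 0 were members). Mean levels in CPM were lower in ETV5 tumours for all 45 members, and the estimates were negative for all 45, where 52.3% of genes were negative. The median was -0.45 (0.730-fold, against -0.02 over all genes), with a range of -0.87 for Aurka to -0.05 for Foxm1 and adjusted p-values of 0.794 to 0.974. On the lower side, 16 members had an unadjusted p under 0.05, against 2.71% of genes. Every ETV5 library lay below every NPY library in 26 members on the scale tested, against 6.82% of genes, and in 18 on the CPM scale, against 4.98%.

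Aurka had the lowest estimate, -0.87 (SE 0.29, 95% interval -1.55 to -0.18, adjusted p = 0.794), followed by Ndc80 with -0.77 (SE 0.22, -1.30 to -0.23, adjusted p = 0.794). For Cdk1 it was -0.50 (SE 0.17, -0.92 to -0.08, adjusted p = 0.794), for Top2a -0.57 (SE 0.19, -1.03 to -0.12, adjusted p = 0.794) and for Mki67 -0.37 (SE 0.24, -0.93 to 0.20, adjusted p = 0.816). Foxm1, with -0.05 (SE 0.22, -0.58 to 0.48, adjusted p = 0.974), and Cdca8, with -0.15 (SE 0.17, -0.54 to 0.25, adjusted p = 0.887), were nearest to 0. The median ran from -0.33 without NPY replicate 2 to -0.51 without NPY replicate 3. In the other lists 0 genes were called. The medians were -0.35 for the 79 other mitosis genes and -0.42 for DNA replication, and 0.03 for cohesin. ETV5 replicates 1 and 2 have the code prefix DS, and ETV5 replicate 3 and all NPY libraries EC, so prefix and group largely coincide. The estimates of all 6 astrocyte, 6 pan-neuronal and 4 tested excitatory neuron genes were higher in ETV5 tumours (medians 1.30, 1.77 and 1.88). Those of all 8 microglia genes were lower (median -0.64), and 0 were called in these lists. Their part in the members' differences was not tested.

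The summed level of the 45 members set the groups side by side. It was 160.4, 139.7 and 149 CPM in the cortex libraries, a mean of 150 ± 10.3 (SD, n = 3). Control tumours had 2322, 2522 and 1829.5 CPM, a mean of 2225 ± 356. ETV5 tumours had 2884, 2675 and 2556 CPM, a mean of 2705 ± 166, and lay above all controls. NPY tumours had 3342, 4102 and 3141 CPM, a mean of 3528 ± 507, and lay above all ETV5 tumours. Control tumours thus held 14.8 times the cortex mean, ETV5 tumours 1.22 times and NPY tumours 1.59 times the control mean, as a description of the list with no test. Set against the summed level of the 32 DNA replication genes, the members were at a ratio of 0.611 ± 0.0430 in cortex. The ratio was 1.52 ± 0.0221 in control, 1.55 ± 0.0832 in ETV5 and 1.56 ± 0.0386 in NPY tumours. The ratios of the 3 tumour groups overlapped, at 1.48 to 1.64 over the 9 libraries.

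**Figure D5:**
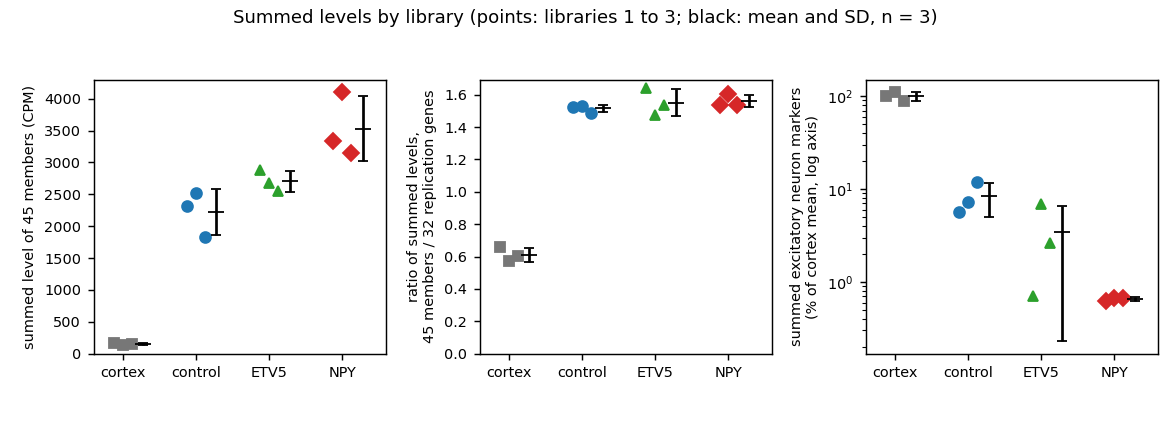
Sums by library: the level of the 45 members in CPM (left), its ratio to the sum of 32 DNA replication genes (middle), and the sum of excitatory neuron markers as a percentage of the cortex mean on a log axis (right). Coloured symbols are libraries 1 to 3 of a group and black bars the mean and SD (n = 3). The left sums run from 140 to 160 CPM in cortex to 3141 to 4102 CPM in NPY tumours, the tumour ratios lie together at 1.48 to 1.64, and the neuron markers are lowest in NPY tumours.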

How the data were processed

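Poly(A) RNA of 12 libraries was sequenced in read pairs from a stranded mRNA kit with 300 ng of total RNA, per the labels' protocols. Per the submitters' processing notes, the tools were STAR 2.5.0a, FastQC 0.11.7, DESeq2 1.30.1 and MultiQC 1.6, with the build mm10. No source used here gives the counting tool, annotation or strand setting. The deposited signal values were read counts that the authors had divided by 1 size factor per library, since all values (100%) came out as whole reads, within 0.01 of a read, after division by the smallest step. Both tables held the same 3 control libraries with identical reads but other size factors.

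Levels are CPM of the recovered reads. The main test was limma 3.58.1 (R 4.3.3, with trend and robust variance) on log2(deposited value + 1), with the 2 groups compared, for genes kept by edgeR's filter (10 reads, 15 in total), Benjamini-Hochberg adjusted over all genes tested and called under 0.05. ETV5 and NPY tumours lie in different tables, so they were compared on recovered reads scaled by median ratios over the 9 tumour libraries. This pseudocount understates changes of low genes. In data simulated with 200 changed genes, 54.2% of 2-fold changes were called between control tumours and cortex, 2.37% between ETV5 and control, 11.8% between NPY and control and 1.01% between ETV5 and NPY tumours. In the real data 10521 of 14621 genes were called between control tumours and cortex. The adjustment depends on how many genes change, so the 54.2% does not carry over to that comparison. Alternatives were pseudocounts of 0.5 and 5, total-count and TMM scaling, other filters, edgeR 4.0.16 and DESeq2 1.42.0 on recovered reads, a replicate block, 3 groups fitted together and leaving out each library.

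Named by rule were, from cortex to control tumours, the members with the largest and smallest change in each role. Between tumours they were Cdk1, Mki67, Top2a, the 2 highest, the 2 lowest and all called members, and in each further list up to 3 called genes in each direction, of which 1 is not reported here. The members and lists were chosen with earlier results of these data known. The tables hold 27 symbols turned into dates and 2 repeated names, none of them a member.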

Additional observations from a re-analysis of the deposited data

How the results depend on the processing

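Members were called higher in control tumours than in cortex in all 45 cases under every alternative run but that of at least 50 reads in 3 libraries. There the filter left 44 members to test, and all 44 were called. Their median log2 fold change there was 3.84 with a pseudocount of 5, 3.75 with TMM scaling and 3.84 with total-count scaling, which moved the median of all genes from -0.003 to 0.16. Between ETV5 and control tumours DESeq2 called 75 genes. Between NPY and control tumours 5 members were called with TMM scaling, 23 with DESeq2 and 0 to 1 without any 1 library, and 1833 genes in all with DESeq2 and 1 to 571 without any 1 library, against 727. Between ETV5 and NPY tumours 1 gene was called with no filter, 56 with DESeq2, 1 with the 3 groups fitted together and 0 to 1 without any 1 library. In ETV5 against control tumours the estimate of Anln turned to 0.000294 with TMM scaling, 0.029 with edgeR and 0.0118 with DESeq2, and ran from -0.18 to 0.20 without any 1 library (0.09 without control replicate 1 and 0.20 without ETV5 replicate 2), and that of Pttg1 ran from -0.27 to 0.0239, the latter without ETV5 replicate 2. In ETV5 against NPY tumours that of Foxm1 turned to 0.0116 with total-count scaling and ran from -0.16 to 0.16 without any 1 library (0.03 without ETV5 replicate 1 and 0.16 without NPY replicate 2). The cause was not tested. Libraries of the same replicate number had correlations of -0.407 to 0.365 across genes. As deviations from a mean of 3 libraries sum to 0, these values cannot show whether the numbers pair the libraries. With a replicate block 1 member, Kif11, and 264 genes were called between NPY and control tumours. Depth limits the cortex values most, where Ncapg rests on 7 reads.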
